A study of Mus musculus with 8 samples.

Results

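Interferon-stimulated genes were examined in the livers of 8 mice that drank water with 30% (w/v) fructose for 22 weeks. The 9 genes were Ifit1, Ifit2, Ifit3, Isg15, Irf7, Rsad2, Usp18, Oasl2 and Stat2, found by matching their Ensembl identifiers among the 46078 genes of the count table. All 9 passed the filter on low counts, as did 14654 genes in all. The mice were 5 wild-type (WT) animals, which carried Rbfox2 alleles flanked by loxP sites and no Cre, and 3 Rbfox2 KO animals, which carried the same alleles and a Cre recombinase driven by the albumin promoter. Both groups were therefore floxed, both drank fructose, and both were fasted before the liver was taken. The diet began in young adults. Rbfox2 encodes a splicing regulator, and the authors used this Cre to delete it in hepatocytes. Whether other liver cells of the Rbfox2 KO mice keep the gene cannot be read from bulk libraries. One poly(A) RNA-seq library was made per mouse, called WT1 to WT5 and KO1 to KO3 by the numbers in the labels. The comparison asks which transcripts differ when hepatocytes lack Rbfox2 on this diet.

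Cells that sense viral or misplaced nucleic acid release interferons, which bind receptors on the same and on neighbouring cells. Type I and type III interferons activate a complex that holds STAT2 and IRF9 and binds interferon-stimulated response elements in promoters. Interferon-gamma acts mainly at gamma-activated sites. The induced genes encode antiviral proteins, further factors of the same pathway, and inhibitors that end the response. In the liver, hepatocytes, Kupffer cells and endothelial cells all respond to interferon.

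The 9 genes fall into roles that order the results. Ifit1, Ifit2 and Ifit3 encode tetratricopeptide proteins that bind foreign RNA or each other. Isg15 encodes a ubiquitin-like protein that is joined to other proteins. Rsad2 encodes viperin, an enzyme that makes a chain-terminating nucleotide, and Oasl2 encodes a protein of the oligoadenylate synthetase family. Irf7 and Stat2 encode transcription factors of the response. Usp18 encodes the protease that removes ISG15 and also blocks signalling at the type I receptor.

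Promoters are shown because several of them carry the letters of a response element. The letters were not used to choose the genes. Genes of this response are induced through such elements, so the count below was partly set by the choice and is a description. The RefSeq windows (GRCm38.p6) run from 250 bases before to 50 after each start site, and 8 of the 9 genes have one, Usp18 being the exception. The core of the response element was searched as GAAANNGAAA on both strands. It was in the windows of 5 of the 8 genes, namely Isg15, Ifit1, Ifit3, Rsad2 and Stat2. Counted per window and not per gene, it was in 3.44% of all 32851 promoter windows. Below, each stretch is printed 5′ to 3′ along the gene's own strand with the matching letters in capitals, and positions are counted from the start site at 0.

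Isg15: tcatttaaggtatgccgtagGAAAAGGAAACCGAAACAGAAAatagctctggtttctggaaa
Ifit1: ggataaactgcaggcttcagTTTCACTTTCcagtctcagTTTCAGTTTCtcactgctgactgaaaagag
Ifit3: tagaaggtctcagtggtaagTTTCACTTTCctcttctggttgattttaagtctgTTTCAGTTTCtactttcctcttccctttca
Rsad2: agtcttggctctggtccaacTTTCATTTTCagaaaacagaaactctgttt
Stat2: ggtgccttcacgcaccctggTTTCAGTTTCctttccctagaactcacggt

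The Isg15 stretch (chr4:156200855-156200916, minus strand) holds 3 overlapping matches that begin at -78, -72 and -66. Ifit1 (chr19:34640765-34640833, plus strand) holds 2 separate matches, at -104 and -85. Ifit3 (chr19:34583353-34583436, plus strand) also holds 2, at -156 and -122. Rsad2 (chr12:26456543-26456592, minus strand) holds 1 at -120, and Stat2 (chr10:128270256-128270305, plus strand) holds 1 at -222, farther from its start than in the other 4 genes. A stretch of 20 bases after the start was found in a GENCODE M21 transcript for the other 4 genes but not for Stat2. The distance of Stat2 thus rests on the RefSeq start. The windows of Ifit2, Irf7 and Oasl2 hold none. The gamma-activated site, searched as TTCNNNGAA, which reads the same on both strands, was in 8.30% of all windows and in 1 of the 8, that of Ifit2 at -241. A match describes the letters of a window and says nothing of what binds there.

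Ifit3 has a near copy, Ifit3b, on the same chromosome. The stretch around its 2 matches (chr19:34607749-34607832, plus strand) was identical to that of Ifit3 at 84 of 84 bases, although it lay farther from the annotated start, at -188 and -154. The 20 bases checked after that start were in no GENCODE M21 transcript of Ifit3b, so this distance also rests on the RefSeq start.

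**Figure D1:**
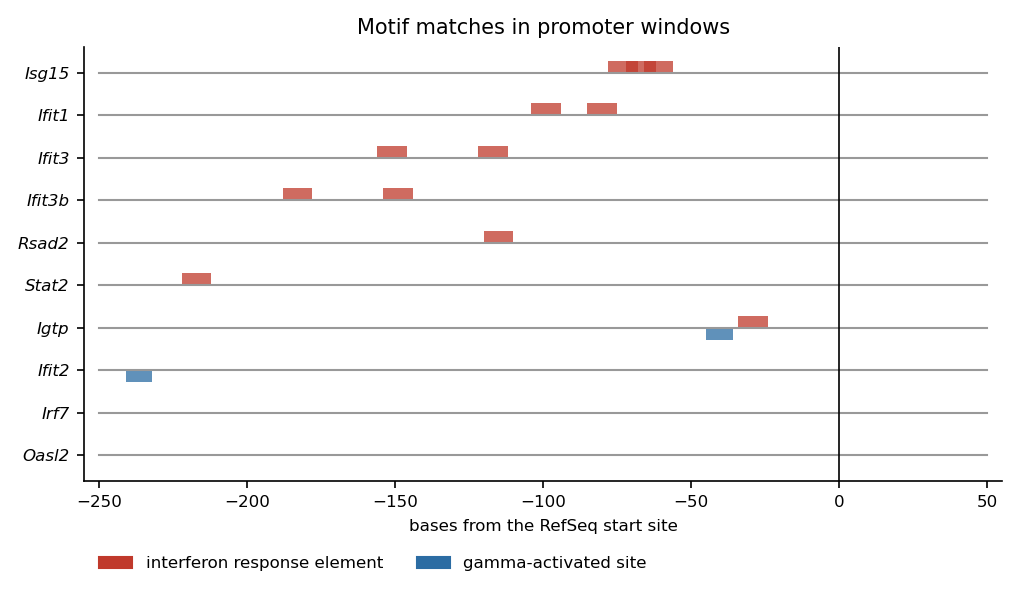
Positions of the response element letters (red, above the line) and the gamma-activated site letters (blue, below the line) in 300-base promoter windows, in bases from the RefSeq start site. The 3 overlapping matches of Isg15 begin at -78, -72 and -66, the single match of Stat2 begins at -222, and Irf7 and Oasl2 have no match of either kind.

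The libraries held 24829693 to 37823155 counts, so a level of 3 counts equals 0.0839 to 0.118 CPM, counts scaled by library size with TMM factors. Rbfox2 itself had 13.96, 20.5, 19.0, 17.9 and 23.2 CPM in WT1 to WT5 and 6.84, 8.61 and 12.4 CPM in KO1 to KO3, and the groups did not overlap. Its log2 fold change was -1.03 ± 0.21 (SE, edgeR adjusted p = 0.328). KO1 stood apart with 462 CPM summed over 12 pancreatic exocrine genes, which were at 17.2 CPM in WT1 and between 4.78 and 5.94 CPM in the other 6 libraries. Major urinary protein genes held 6.71% of the counts of KO1, against 17.9% to 35.5% in the other libraries. The TMM factor of KO1 was 1.29, against 0.821 to 1.13 in the others. All 8 libraries had the hepatocyte markers, at 62553 to 73732 CPM in sum.

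Every one of the 9 genes was detected in every liver, with between 53 and 2105 counts. Compared per kilobase of exon, Isg15 had the highest median in WT, at 13.2 RPKM, reads scaled by library size and exon length, with a range of 9.47 to 37.2. Irf7 followed at a median of 8.29 RPKM (7.30 to 10.7), then Stat2 at 7.02 (6.59 to 8.63) and Ifit3 at 6.58 (6.31 to 15.8). The ranges of these 4 genes overlapped those of their neighbours in the order. Ifit1 had a median of 3.80 RPKM (3.52 to 13.9), Usp18 3.32 (2.48 to 8.92) and Rsad2 2.85 (2.22 to 6.56), and these 3 overlapped likewise. Ifit2, at 0.908 RPKM (0.671 to 1.22), and Oasl2, at 0.529 RPKM (0.364 to 0.684), were the lowest. Their ranges just overlapped each other and lay below that of Rsad2.

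Ifit1 had 36.97 CPM in WT1 and 9.34, 9.49, 10.7 and 10.1 CPM in WT2 to WT5. It had 32.5 CPM in KO1 and 7.59 and 7.86 CPM in KO2 and KO3. Both groups thus held 1 high liver, WT1 at 3.46 times the next WT sample and KO1 at 4.14 times the next Rbfox2 KO sample. The gene (ENSMUSG00000034459) spans 34640871 to 34650009 on chromosome 19, plus strand. The group means were 15.3 ± 12.1 CPM (SD, n = 5) and 16.0 ± 14.3 CPM (SD, n = 3). The log2 fold change of Rbfox2 KO against WT was 0.07 ± 0.71 (SE, 95% interval -1.61 to 1.74).

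Ifit3 (ENSMUSG00000074896, chromosome 19, 34583531 to 34588731, plus strand) had 27.6 CPM in WT1 and 11.96, 11.03, 11.01 and 11.5 CPM in the other WT samples. It had 31.9 CPM in KO1 and 7.51 and 7.38 CPM in the other Rbfox2 KO samples. The 4 lower WT livers differed little, with a coefficient of variation of 3.93%, and both lower Rbfox2 KO livers lay under all of them. Over all samples its log2 fold change was 0.10 ± 0.59 (SE, 95% interval -1.30 to 1.49). Of the 100-base windows of Ifit3, 31.7% also occur in Ifit3b, so the split of reads between them is uncertain. Summed over both genes, the level was 40.9 CPM in WT1, 16.3 to 17.6 CPM in the other WT samples, 45.4 CPM in KO1, and 11.4 and 10.2 CPM in KO2 and KO3, the same order of libraries.

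Ifit2 (ENSMUSG00000045932, chromosome 19, 34550694 to 34576419, plus strand) was low and varied less in WT. It had 4.80, 3.30, 2.63, 3.57 and 3.58 CPM in WT1 to WT5 and 8.75, 2.08 and 3.22 CPM in KO1 to KO3. WT1 was only 1.34 times the next WT sample, while KO1 was 2.72 times the next Rbfox2 KO sample. Its log2 fold change was 0.39 ± 0.40 (SE, 95% interval -0.51 to 1.30).

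Isg15 (ENSMUSG00000035692, chromosome 4, 156199424 to 156200818, minus strand) had 28.1 CPM in WT1 and 9.99, 10.1, 9.54 and 7.16 CPM in WT2 to WT5. It had 25.7 CPM in KO1, 8.14 in KO2 and 4.75 in KO3. Its highest and lowest livers, WT1 and KO3, differed 5.92-fold, the widest range of the 9 genes. The mean of the 5 WT livers was 12.98 CPM with an SD of 8.56, that of the 3 Rbfox2 KO livers was 12.9 CPM with an SD of 11.3, and the log2 fold change was -0.01 ± 0.66 (SE, 95% interval -1.57 to 1.55).

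Rsad2 (ENSMUSG00000020641, chromosome 12, 26442746 to 26456452, minus strand) had 28.4 CPM in WT1 and 12.3, 9.63, 12.3 and 14.5 CPM in WT2 to WT5, against 41.9 CPM in KO1 and 9.24 and 8.95 CPM in KO2 and KO3. KO1 was 4.54 times the next Rbfox2 KO sample, the widest such gap of the 9 genes. Its log2 fold change was 0.38 ± 0.61 (SE, 95% interval -1.06 to 1.82). Oasl2 (ENSMUSG00000029561, chromosome 5, 114896936 to 114912234, plus strand) had 4.36, 2.81, 2.32, 3.95 and 3.37 CPM in WT1 to WT5 and 8.66, 2.52 and 2.71 CPM in KO1 to KO3. WT1 hardly exceeded WT4, by 1.103 times, so Oasl2 was set apart in KO1 alone. The genotype difference of Oasl2 was 0.47 ± 0.40 on the log2 scale (SE, 95% interval -0.44 to 1.37).

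Among the regulators, Usp18 (ENSMUSG00000030107, chromosome 6, 121245906 to 121270917, plus strand) had 24.9 CPM in WT1 and 9.02, 9.94, 9.26 and 6.92 CPM in WT2 to WT5. It had 34.4 CPM in KO1 and 8.06 and 6.49 CPM in KO2 and KO3. The inhibitor was thus high in the same livers as the antiviral genes. Its log2 fold change was 0.45 ± 0.66 (SE, 95% interval -1.11 to 2.01), and 124 of its exon bases overlap a gene on the other strand.

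Irf7 (ENSMUSG00000025498, chromosome 7, 141262706 to 141266481, minus strand) had 40.3, 27.6, 31.3, 31.5 and 30.5 CPM in WT1 to WT5 and 66.0, 20.8 and 29.5 CPM in KO1 to KO3. KO1 was the highest of the 8 livers and KO2 the lowest. By genotype the log2 fold change was 0.27 ± 0.33 (SE, 95% interval -0.48 to 1.01). Stat2 (ENSMUSG00000040033, chromosome 10, 128270559 to 128292849, plus strand) moved least, with 51.1, 41.6, 39.1, 43.5 and 39.9 CPM in WT1 to WT5 and 50.3, 37.2 and 40.6 CPM in KO1 to KO3. Its highest and lowest livers differed 1.37-fold. For Stat2 the log2 fold change was -0.01 ± 0.13 (SE, 95% interval -0.29 to 0.27), the narrowest interval of the 9.

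**Figure D2:**
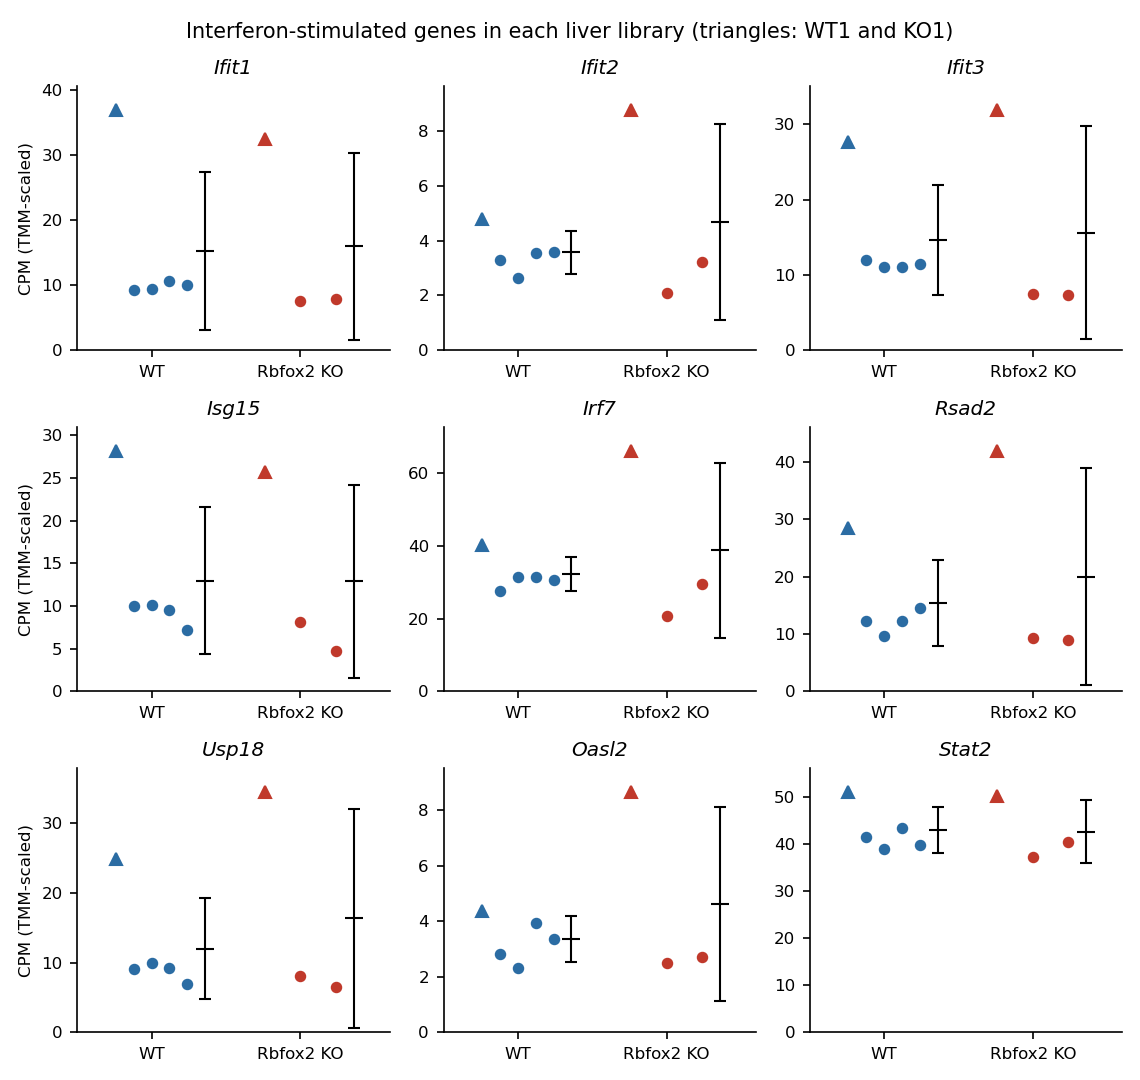
Level of each of the 9 genes in each liver library, in CPM scaled by TMM factors (vertical axes from 0, one panel per gene), with WT in blue and Rbfox2 KO in red. Triangles mark WT1 and KO1, circles the other libraries, and the black bar gives the group mean and SD (n = 5 and n = 3); WT1 and KO1 are the highest of their group in all 9 panels, with 36.97 and 32.5 CPM for Ifit1 and 51.1 and 50.3 CPM for Stat2.

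By genotype, none of the 9 genes passed the test. The edgeR quasi-likelihood test gave an adjusted p that rounds to 1 for each of them, and 0 of 9 were called, against 0% of the 14654 genes tested. At an unadjusted edgeR p under 0.05 there were again 0 of 9, against 694 of 14654 genes (4.74%), made up of 2.41% higher and 2.33% lower in Rbfox2 KO. DESeq2 called 0 of the 8 genes for which it gave a p, Usp18 having none, and 0.404% of its 14615 genes, and limma-voom called 0 of 9 and 0% of genes. The groups overlapped in CPM for all 9 genes, while they did not for 3.71% of genes. The log2 fold change was above 0 for 7 of 9 genes, against 50.2% of all genes, with a median of 0.27 over the 9 and 0.00095 over all genes tested. That median was -0.73 without KO1, and -0.04 with all samples and a replicate block in the model. Its sign thus depended on this library and on the model. The intervals were wide, and for Ifit1 the fold allowed ran from 0.328 to 3.34, while for Stat2 it ran from 0.819 to 1.20. Under scaling by library totals the median of all genes was 0.12, with 0.25 for Isg15 and 0.13 for Stat2, both of which were at -0.01 under TMM scaling.

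Between livers the 9 genes varied together. WT1 was the highest WT sample for 9 of 9, against 30.2% of all genes, and KO1 the highest Rbfox2 KO sample for 9 of 9, against 36.5%. Both held at once for 9 of 9, against 15% of genes. WT1 was at least 1.5 times the next WT sample for 5 of 9 (2.21% of all genes), namely Ifit1, Ifit3, Isg15, Rsad2 and Usp18. KO1 was at least 1.5 times the next Rbfox2 KO sample for 8 of 9 (8.34% of all genes), all but Stat2. Both held for the same 5 genes (0.826% of all genes). In WT the gap between WT1 and the next sample exceeded 0.71 of the whole range for these 5 genes too, against 2.18% of all genes with WT1 highest and 4.10% with any WT sample highest. This pattern was noticed in these samples, which differ in ways besides interferon-stimulated genes, and the genes are known to be induced together, so their count is a description and carries no test.

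Several of the 9 genes differed between the pair of high livers. KO1 exceeded WT1 1.99-fold for Oasl2, 1.82-fold for Ifit2, 1.64-fold for Irf7, 1.47-fold for Rsad2, 1.38-fold for Usp18 and 1.16-fold for Ifit3. Its level was 0.983 times that of WT1 for Stat2, 0.914 times for Isg15 and 0.879 times for Ifit1. Each ratio compares 1 library with 1 library and has no replicate check. The ratios are under TMM scaling, with factors of 1.29 for KO1 and 0.992 for WT1. Library totals would raise each by the same factor, so which ratios fall below 1 depends on the scaling.

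Without WT1 and KO1, a choice made after their values were seen, 4 WT and 2 Rbfox2 KO livers remained. All 9 log2 fold changes were then below 0, against 52.2% of 14800 genes, with a median of -0.30 over the 9 and -0.0094 over all genes. At an adjusted p of 0.05, edgeR called 0 of 9 and 0% of all genes. At an unadjusted p under 0.05 there were 4 of 9, all lower in Rbfox2 KO, against 4.83% of all genes and 2.70% of genes in that direction. Ifit3 had a log2 fold change of -0.62 ± 0.11 (SE, edgeR unadjusted p = 0.000293, adjusted p = 0.217), Ifit1 -0.36 ± 0.11 (adjusted p = 0.885), Isg15 -0.53 ± 0.23 (adjusted p = 0.98) and Rsad2 -0.43 ± 0.16 (adjusted p = 0.98). Both Rbfox2 KO livers lay below every WT liver for 3 of 9 genes, Ifit1, Ifit3 and Rsad2, against 6.55% of all genes, and above every WT liver for 0 of 9, against 7.02%. Stat2 was at -0.08 ± 0.09. With 2 livers in a group and samples left out by their own values, these differences did not pass the threshold over all genes and are given as values. The 9 genes vary together between livers, so their counts here are not separate observations and carry no test.

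**Figure D3:**
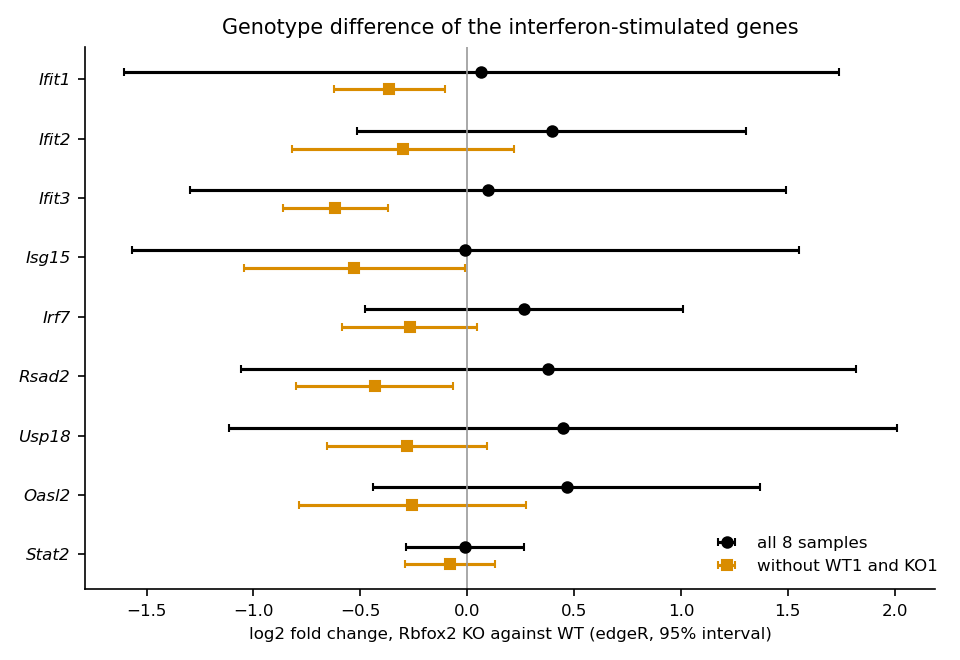
Log2 fold change of Rbfox2 KO against WT for each gene with its 95% interval from edgeR, over all 8 samples (black circles) and without WT1 and KO1 (orange squares). The intervals over all samples include 0 for all 9 genes and are widest for Ifit1, from -1.61 to 1.74, while without WT1 and KO1 all 9 points lie below 0, Ifit3 lowest at -0.62.

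Markers of other cells were summed beside this pattern. In bulk liver, fewer cells of a type and less RNA per cell cannot be told apart. All 12 pancreatic exocrine genes were highest in WT1 and KO1 of their groups, at the sums given above, and of these 12 genes 1 passed the filter on low counts. The 7 monocyte and neutrophil markers summed to 10.9 CPM in WT1 and 6.18 to 6.98 CPM in the other WT samples, and to 19.7 CPM in KO1 and 6.96 and 5.34 CPM in KO2 and KO3. For 2 of these 7 genes WT1 and KO1 were both highest. The part of these cells in the levels of interferon-stimulated genes was not tested. Kupffer cell markers (8 genes) summed to 209.5 to 242.6 CPM in WT, with WT5 and not WT1 highest, and to 219.2 to 295.3 CPM in Rbfox2 KO, with KO3 and not KO1 highest. Plasmacytoid dendritic cell markers (6 genes, 3 of them past the filter) summed to 2.67 to 6.21 CPM in WT, WT5 being highest, and to 2.44 to 8.60 CPM in Rbfox2 KO, KO1 being highest. Lymphocyte markers (10 genes) lay between 2.18 and 11.1 CPM, with WT2 highest and WT1 at 3.77 CPM. Skeletal muscle genes (8) summed to 195.2 CPM in KO1, but to 39.6 CPM in WT1 and 349.5 CPM in WT5. Cholangiocyte markers (5) were highest in WT1, at 32.2 CPM against 20.5 to 27.3 CPM in the other WT samples, and in KO1, at 31.9 CPM against 24.9 and 28.1 CPM, and both held for 1 of the 5 genes. Their part in the result was likewise not tested. Endothelial markers (6) were highest in WT1 at 190.9 CPM and lowest in KO1 at 159.2 CPM. Stellate cell markers (6) were highest in WT5 at 195.0 CPM and in KO1 at 227.4 CPM.

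The rest of the pathway was described from lists by role. Of the 15 interferon ligands, 11 had no count in any liver, and the highest count of any ligand in any liver was 3, for Ifng in KO2 and KO3. At this depth ligand transcripts were at or under the floor of 3 counts in all 8 livers, WT1 and KO1 included. Of the 9 receptors and kinases, 8 were tested, and WT1 and KO1 were both highest for 0 of them. Their median log2 fold change by genotype was 0.06, and Il10rb, a shared receptor chain of interleukin-10 and interferon-lambda, had the smallest p, at 0.34 ± 0.15 (SE, edgeR adjusted p = 1).

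The 9 transcription factors had a median log2 fold change of 0.10. WT1 and KO1 were both highest for 3 of them. Irf9, which encodes a partner of STAT2, had 37.4 CPM in WT1 and 24.1 to 26.9 CPM in the other WT samples, and 36.6, 23.8 and 28.9 CPM in KO1 to KO3. Irf9 was thus highest in WT1 and KO1 of their groups, as Stat2 was. By genotype its log2 fold change was 0.11 ± 0.18 (SE). Irf5, a factor of the toll-like receptor response, was at 0.45 ± 0.20 (SE, edgeR adjusted p = 1).

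Nucleic acid sensors and their adapters, 15 of 16 tested, had a median log2 fold change of 0.02, and WT1 and KO1 were both highest for 5. Ifih1, which encodes the RNA sensor MDA5, had 22.7 CPM in WT1 and 17.5 to 18.5 CPM in the other WT samples, and 30.8, 14.8 and 15.6 CPM in KO1 to KO3. By genotype it was at 0.11 ± 0.23 (SE). Among 51 other antiviral genes, 49 were tested. Their median log2 fold change was 0.10. WT1 and KO1 were both highest for 32 of these 49 and both at least 1.5 times the next sample for 8. Oasl1, a paralog of Oasl2 on the same chromosome, had 13.2 CPM in WT1 and 5.03 to 6.56 CPM in the other WT samples, against 11.7, 4.88 and 5.15 CPM in KO1 to KO3. Oasl1 was thus set apart in WT1, where Oasl2 was not. Ifit3b had 13.3 CPM in WT1 and 5.07 to 6.09 CPM in the other WT samples, and 13.5, 3.89 and 2.83 CPM in KO1 to KO3. Ifit1bl1 and Ifit1bl2, relatives of Ifit1, did not pass the filter and reached at most 0.502 and 0.471 CPM. Znfx1, an RNA helicase gene, had the smallest genotype p of this list, at -0.26 ± 0.10 (SE, edgeR adjusted p = 0.972).

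The 3 tested genes of ISG15 conjugation, Uba7, Ube2l6 and Herc6, were all highest in WT1 and KO1. Uba7, the activating enzyme, had 6.02 CPM in WT1 and 3.62 to 4.14 CPM in the other WT samples, and 6.28, 4.36 and 3.08 CPM in KO1 to KO3. Of the 15 negative regulators, 14 were tested. Their log2 fold changes had a median of 0.01, and WT1 and KO1 were both highest for 3. Rnf125, a ubiquitin ligase that acts on RNA sensors, had the smallest genotype p of all lists. Its groups did not overlap, as for 1 of the 115 list genes tested (0.87%) and 3.71% of all genes, with 25.1, 20.8, 17.01, 21.4 and 20.9 CPM in WT1 to WT5 and 16.3, 13.8 and 14.3 CPM in KO1 to KO3. Its log2 fold change was -0.51 ± 0.13 (SE, edgeR unadjusted p = 0.00256), and with an adjusted p of 0.545 it did not pass. Across all lists, 0 genes passed an adjusted p of 0.05 by edgeR, DESeq2 or limma-voom. At an unadjusted edgeR p under 0.05 there were 4 of the 115 list genes tested (3.48%), against 4.74% of all genes, namely Il10rb, Irf5, Znfx1 and Rnf125.

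Guanylate-binding proteins and immunity-related GTPases act against intracellular pathogens and are strongly induced by interferon-gamma. Their genes were also high in both livers, but in another proportion than the 9 genes. All 18 were tested, with a median log2 fold change by genotype of -0.09, 5 above and 13 below 0. This median was -0.44 without KO1, 0.10 without WT1 and 0.06 with library totals, so neither its size nor its sign was stable. WT1 was highest of WT for 14, KO1 highest of Rbfox2 KO for 17, and both for 13. In WT1 they stood at a median of 1.97 times the other WT samples, near the 2.31 times of the 9 genes. In KO1 they stood at 1.68 times the other Rbfox2 KO samples, against 3.99 times for the 9 genes. Other antiviral genes stood at medians of 1.29 times in WT1 and 1.88 times in KO1, and ISG15 conjugation genes at 1.365 and 1.655 times. The GTPase median in KO1 was thus near those of these lists, while in WT1 it was higher than theirs. Over all genes tested these medians were 0.991 and 1. Gbp10 had 16.5 CPM in WT1, 5.46 to 6.85 CPM in the other WT samples, 7.31 CPM in KO1, and 3.15 and 3.83 CPM in KO2 and KO3, with a genotype log2 fold change of -0.76 ± 0.45 (SE). Gbp4 was at -0.35 ± 0.27 (SE), and Gvin1, higher in KO1 than in WT1, was at 0.43 ± 0.36 (SE).

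**Figure D4:**
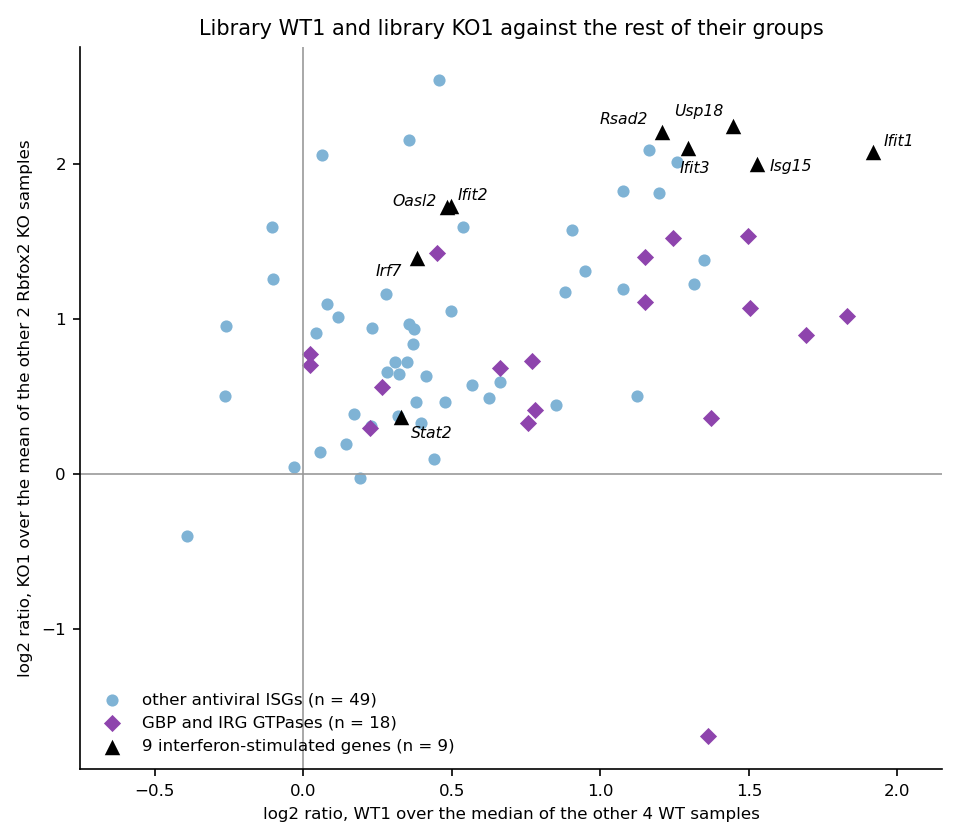
For each tested gene, the log2 ratio of WT1 to the median of the other 4 WT samples (horizontal axis) and of KO1 to the mean of the other 2 Rbfox2 KO samples (vertical axis). The 9 genes (black triangles) lie above 0 on both axes, with medians of 2.31 and 3.99 as plain ratios. The GTPase genes (purple diamonds) have medians of 1.97 and 1.68, and the other antiviral genes (light blue circles) 1.29 and 1.88.

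Set against each other directly, KO1 was below WT1 for 14 of the 18 GTPase genes, with a median ratio of 0.861. KO1 was above WT1 for 6 of the 9 genes, with a median of 1.38, and for 34 of 49 other antiviral genes, with a median of 1.17. Over all genes tested the median was 1.003. For receptors and kinases KO1 was above WT1 in 7 of 8 genes and below in 1, with a median of 1.21. WT1 and KO1 were both highest for 0 of these. Medians were 1.095 for sensors and adapters, 1.086 for transcription factors, 1.064 for ISG15 conjugation and 1.04 for negative regulators. A ratio above 1 was thus not confined to genes high in both livers. Igtp, a GTPase gene chosen after its values were seen, had 68.5 CPM in WT1 and 32.9 CPM in KO1, against 22.7 to 29.6 CPM in the other WT samples and 23.9 and 27.5 CPM in KO2 and KO3. Gbp2b, also chosen after its values were seen, was high in WT1 at 4.21 CPM and lowest of all in KO1 at 0.753 CPM. These are ratios of single libraries, and the difference between the lists was not tested. The TMM factors were 1.29 for KO1 and 0.992 for WT1. Scaling by library totals would thus raise every ratio of KO1 to WT1 by the same factor. Which ratios fall below 1 therefore depends on the scaling, while the order of the ratios does not.

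The promoter letters of that list were counted in the same windows. Of 11 GTPase genes with a window, 10 had the response element letters and 6 the gamma-activated site letters. The 9 genes had 5 and 1 of 8, and other antiviral genes 16 and 8 of 38. The gamma-activated site letters were also in 3 of 7 transcription factor genes and 7 of 15 ligand genes. They were in 2 of 8 receptors and kinases, 3 of 11 negative regulators, 1 of 11 sensors and adapters and 0 of 3 ISG15 conjugation genes. Counted per window and not per gene, the shares of all windows were 3.44% and 8.30%. The window of Igtp shows both side by side, the gamma-activated site letters from -45 and the response element letters from -34 (chr11:58199491-58199551, plus strand).

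Igtp: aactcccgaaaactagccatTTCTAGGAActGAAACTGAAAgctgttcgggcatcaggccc

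**Figure D5:**
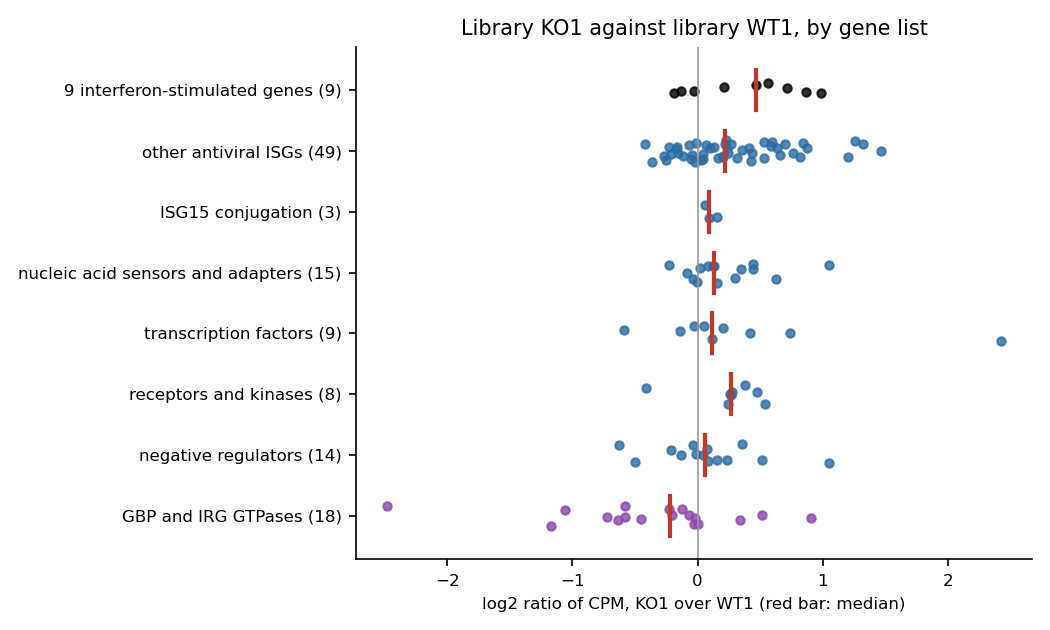
Log2 ratio of CPM in KO1 to WT1 for each tested gene, by list (number of genes in brackets), with the list median as a red bar. Under TMM scaling the median of the 9 genes is 1.38 as a plain ratio and that of the GTPase genes 0.861. Of the 18 GTPase points, 14 lie below 0.

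Outside the lists, likeness to the 9 genes was measured as Pearson's r between a gene's log2 CPM and the mean z score of the 9, over all 8 livers. The 10 genes with the highest r were Defb1 (0.992), Ly6e (0.976), Atpaf1, Cwc25, Dntt, Nudt18, Trim30d, Aldh1b1, Sae1 and Ccdc34 (0.949). The 8 livers share the contrast of WT1 and KO1 with the rest, and r was therefore computed again on the other 6. Without WT1 and KO1 the r of Ly6e was 0.987 and that of Defb1 0.887, while those of Dntt and Ccdc34 fell to 0.440 and 0.401. Ly6e, which encodes a lipid-anchored surface protein of the Ly6 family, had 155.1, 95.2, 91.4, 103.6 and 94.4 CPM in WT1 to WT5 and 272.0, 81.1 and 87.0 CPM in KO1 to KO3. Defb1, a beta-defensin gene, had 2.88 CPM in WT1 and 0.668 to 1.05 CPM in the other WT samples, and 4.61, 0.629 and 0.531 CPM in KO1 to KO3. Of the 50 genes outside the 9 with the highest r, 15 were on one of the pathway lists. These lists held 115 of the 14654 genes tested. They were chosen as genes of this pathway with earlier results of these data known, so the count is a description.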

How the data were processed

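Poly(A) RNA was sequenced in livers of 5 WT and 3 Rbfox2 KO mice, grouped by their labels. The deposited table holds raw counts for each Ensembl gene. The authors obtained these counts by aligning paired-end reads to GRCm38 with TopHat2 (2.0.11) and counting with featureCounts. CASAVA (1.8.4) is also named in the submitters' processing notes. The strand setting of the counting and the handling of multi-mapped reads are not given in the sources used here, so overlapping, antisense and near-identical genes are uncertain. For example, 45 exon bases of Irf7 overlap a gene on the other strand, and 3.29% of Ifit1 windows of 100 bases occur in Ifit1bl2. Symbols, coordinates and exon lengths came from GENCODE M21 of the same build, and 45143 of 46078 identifiers had a symbol. The table had 0 sample columns without a sample and 0 rows that name no gene.

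Genes were filtered with filterByExpr and scaled by TMM factors, and the genotypes were compared by edgeR (4.0.16, R 4.3.3) in its quasi-likelihood form with the robust option. The model held genotype alone, and p-values were adjusted by Benjamini-Hochberg over all genes tested. The authors name DESeq2 and edgeR-voom-limma, with an adjusted p of 0.05. The SE was obtained as the absolute log2 fold change over the root of the F statistic. Likeness used log2 CPM with a prior count of 2. Alternatives were other scalings and filters, DESeq2 (1.42.0), limma-voom (3.58.1), a fit without the robust option, a threshold of 0.1, a replicate block and leaving out samples. Floors of 3 counts cover counting error only. No source says that the mice came from separate litters, so p-values measure the spread between these samples.

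The 9 genes and all lists were chosen with earlier results of these data known. The text names the 9 genes, Rbfox2, Irf9, 4 paralogs (Ifit1bl1, Ifit1bl2, Ifit3b, Oasl1), genes among the 3 with the smallest p of each list, and the 10 genes outside the lists most like the 9. The values of 1 gene that the rule also names are not reported here. Other names are said to be chosen after their values were seen.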

Additional observations from a re-analysis of the deposited data

Results flagged for a closer look

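In WT, 19 of 54 values tested had 1 liver set apart from the other 4, with a gap above 0.71 of the whole range. Chance sets a liver apart in about 1 in 20 groups, a share that does not apply to this count, since the genes were chosen with these data known and some for following a score that is high in WT1. In each of these the liver was WT1.

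Of the 9 interferon-stimulated genes, 5 were among them, with WT1 at 36.97 CPM for Ifit1, 27.6 CPM for Ifit3, 28.1 CPM for Isg15, 28.4 CPM for Rsad2 and 24.9 CPM for Usp18. Over the rest of the pathway WT1 stood apart at 37.4 CPM for Irf9, 22.7 CPM for Ifih1, 13.2 CPM for Oasl1, 13.3 CPM for Ifit3b, 16.5 CPM for Gbp10 and 6.02 CPM for Uba7. Parp12, an antiviral ADP-ribosyltransferase gene, had 26.1 CPM in WT1 and 17.1 to 18.9 CPM in the other WT livers. Among the genes most like the 9, WT1 had 2.88 CPM of Defb1, 155.1 CPM of Ly6e, 3.73 CPM of Dntt, 20.5 CPM of Nudt18 and 16.2 CPM of Sae1. The monocyte and neutrophil markers (10.9 CPM) and the pancreatic exocrine markers (17.2 CPM) were also set apart in WT1, and the part of these cells in the other values was not tested. The 3 Rbfox2 KO livers are too few for this rule.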

How the results depend on the processing

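No interferon-stimulated gene and no gene of the pathway lists was called at an adjusted p of 0.05 under the settings run, or at 0.1 with all samples and TMM scaling, and the lowest adjusted p of the 9 genes was 0.217. The number called among all genes was 0, and became 6 with no filter on low counts (1036 at an unadjusted p under 0.05), 59 by DESeq2 (722 unadjusted) and 1 at a threshold of 0.1. Leaving out each sample in turn moved the median log2 fold change of the 9 genes between -0.73 and 0.57 and that of the other antiviral genes between -0.26 and 0.24, both lowest without KO1, and that of the GTPase genes between -0.44 (without KO1) and 0.10 (without WT1). With library totals, which put the median of all genes at 0.12, the medians were 0.17 for receptors and kinases and 0.11 for negative regulators, and Isg15 was at 0.25 and Stat2 at 0.13. With no filter Isg15 and Stat2 were at 0.0020 and 0.0021. By limma-voom Ifit1 was at -0.022 and Ifit3 at -0.15.

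Without WT1 and KO1 together, added after seeing the data, 7 genes that had been above 0 were below it, Ifit1 at -0.36, Ifit2 at -0.30, Ifit3 at -0.62, Irf7 at -0.27, Rsad2 at -0.43, Usp18 at -0.28 and Oasl2 at -0.26. With 1 sample left out the log2 fold changes ran from -0.99 to 0.69 for Ifit1, -0.43 to 0.74 for Ifit2, -0.98 to 0.45 for Ifit3, -1.02 to 0.48 for Isg15, -0.36 to 0.57 for Irf7, -0.77 to 0.73 for Rsad2, -0.73 to 0.89 for Usp18, -0.37 to 0.75 for Oasl2 and -0.15 to 0.078 for Stat2. Of 72 such values 55 kept their sign. Of 89 values under the other settings 73 did, and DESeq2 gave no p for Usp18. The cause of these changes was not tested. Where the filter or scaling was changed, the genes or the scale changed by construction.

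Sample numbers 1 to 3 occur in both groups. The deviations of same-numbered samples correlated at r of 0.16, 0.05 and 0.17 for numbers 1 to 3. Those of differently numbered samples correlated at -0.41 to 0.37. The same-numbered pairs were not all above 0.1, so the numbers were not treated as pairs. With a replicate block, 0 genes were called (739 unadjusted), and of the 9 genes 0 were called (1 unadjusted, Isg15 at -0.48). The median of the 9 was -0.04, with Ifit1 at -0.25, Ifit3 at -0.33 and Usp18 at -0.082. With 3 Rbfox2 KO livers, and with WT1 and KO1 high in their groups, a genotype difference within the intervals given was not excluded.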
